A study of Mus musculus with 10 samples.

Results

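Otx2, Six3, Six6, Rax, Lhx2, Emx2, Nkx2-1, Hesx1 and Vax1 encode homeodomain transcription factors of the embryonic forebrain and eye. They were chosen by name, with earlier results of these data known but with no cut-off on a measured value, and make up 9 of the 35542 genes in the count table. All 9 had a row in the table, whose coordinates are on GRCm38, and 8 passed the filter on low counts. The exception was Hesx1, which had at most 10 reads in any library.

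These factors pattern the front of the neural plate. Otx2, Six3 and Hesx1 act in the anterior neural plate, Rax, Six6 and Lhx2 in the eye field that folds out into the optic vesicles, Emx2 in the dorsal telencephalon, and Nkx2-1 and Vax1 in the ventral forebrain and optic stalk. The frontonasal prominence (FNP) is the mesenchyme and ectoderm of the upper face that covers the forebrain. Transcripts of these factors are best known from the neighbouring brain and eye, although Otx2, Six3 and Lhx2 are also known from the olfactory placode or epithelium.

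RNA was sequenced from FNP dissected from FVB/NJ embryos at E10.5. There were 6 wild-type libraries (WT, both Smchd1 alleles intact), of which 3 were labelled male and 3 female. A further 4 libraries came from embryos homozygous for MommeD1 (MD1), of which 2 were labelled male and 2 female. MommeD1 is a nonsense, loss-of-function allele of Smchd1 from a mutagenesis screen. The study compared the genotypes to learn what loss of this chromatin protein does to expression in the FNP. The labels do not say whether each library is a separate embryo, so p-values measure only the spread between these samples.

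The libraries held 4195119 to 24125084 counts, with a median of 13820064. MD1 male replicate 3 was the shallowest. Smchd1 stood at 246 ± 14.0 counts per 1000000 (CPM, scaled by TMM) in WT (SD, n = 6) and at 78.6 ± 20.8 CPM in MD1 (SD, n = 4), with no overlap. The library labelled MD1 female 1 carried reads of the Y chromosome (Ddx3y 88.2 CPM, Eif2s3y 81.3 CPM, Kdm5d 73.3 CPM, Uty 47.2 CPM), while the WT libraries labelled female had 0 reads in these 4 genes. Its Xist level was 204 CPM, below the lowest WT female level of 2594 CPM. That level was also above every library labelled male, of which the highest was WT male replicate 3 at 2.08 CPM. MD1 female replicate 4 also stood apart. Its mean log2 level of 12 genes of the hypoxia response was 3.79 above the WT mean, against a WT range of -0.59 to 1.43, and that of 5 erythroid genes was 2.49 above it, against -0.28 to 0.19. The comparison of the genotypes was therefore repeated without each of these libraries, for the members and for the gene lists.

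Per length of transcript, the members were found at very different levels. On the deposited log2 RPKM scale, the WT means ran from Lhx2 at 4.52 ± 0.51, Nkx2-1 at 4.03 ± 0.33, Otx2 at 3.80 ± 0.26 and Emx2 at 3.61 ± 0.39 (SD, n = 6). Six3 followed at 2.78 ± 0.16, Vax1 at 2.40 ± 0.19 and Six6 at 0.71 ± 1.01. The last places were held by Rax at -1.76 ± 2.75 and Hesx1 at -3.50 ± 1.21, 2 genes for which some libraries with 0 reads carry a value that replaced the 0. Neighbours in this order overlapped over the WT libraries, except that all 6 Emx2 values were above all Six3 values, and all 6 Vax1 values were above all Six6 values. Within each library, Emx2 was above Six3 and Six3 above Vax1 in 6 of 6 WT libraries, and Vax1 above Six6 in 6 of 6. Lhx2 was above Nkx2-1 in only 4 of 6 and Otx2 above Emx2 in 3 of 6.

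Promoter sequence is shown for Lhx2 and Six6, which were high and low in the same libraries, for Nkx2-1, which did not follow them, and for Otx2, the highest member in MD1 female replicate 4. Each line holds the 250 bases before a RefSeq transcript start (GRCm38.p6), read 5′ to 3′ on the strand of the gene. Capitals mark a match to TAATTA, the core that many homeodomains bind. The windows are chr2:38339031-38339280 on the plus strand for Lhx2, chr12:72939632-72939881 on the plus strand for Six6, chr12:56536909-56537158 on the minus strand for Nkx2-1 and chr14:48667645-48667894 on the minus strand for Otx2.

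Lhx2: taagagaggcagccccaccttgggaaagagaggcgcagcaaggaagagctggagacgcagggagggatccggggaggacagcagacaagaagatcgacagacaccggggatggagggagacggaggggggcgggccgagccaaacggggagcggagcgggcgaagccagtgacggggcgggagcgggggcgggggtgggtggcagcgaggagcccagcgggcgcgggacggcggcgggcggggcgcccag

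Six6: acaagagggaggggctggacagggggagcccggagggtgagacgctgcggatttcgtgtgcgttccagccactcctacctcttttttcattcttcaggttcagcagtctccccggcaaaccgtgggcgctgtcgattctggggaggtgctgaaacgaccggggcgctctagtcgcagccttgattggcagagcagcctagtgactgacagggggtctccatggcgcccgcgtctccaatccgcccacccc

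Nkx2-1: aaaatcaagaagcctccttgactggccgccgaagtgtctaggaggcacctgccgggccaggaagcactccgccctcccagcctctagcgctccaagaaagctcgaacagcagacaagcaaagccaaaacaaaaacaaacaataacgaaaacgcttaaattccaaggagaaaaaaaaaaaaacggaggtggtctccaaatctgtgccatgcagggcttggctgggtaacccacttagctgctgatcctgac

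Otx2: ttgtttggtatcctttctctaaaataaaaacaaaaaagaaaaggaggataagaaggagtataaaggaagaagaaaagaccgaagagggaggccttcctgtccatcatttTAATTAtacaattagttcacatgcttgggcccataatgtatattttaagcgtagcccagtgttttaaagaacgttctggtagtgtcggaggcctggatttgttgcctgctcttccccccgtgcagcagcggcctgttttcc

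The Otx2 window shown is the one whose start is nearest to the 5′ end of the gene in the count table, and it begins 6175 bases inside that end. RefSeq promoter windows of 300 bases (250 before and 50 from the start) were matched by symbol for 8 members, 12 windows in all. TAATTA, which reads the same on both strands, was in 3 of the 12 windows, against 5.29% of 32851 windows over all genes. It occurred 1 time in the Otx2 window shown, 3 times in another Otx2 window and 1 time in the Emx2 window. TAATCC, the OTX2-type site, was in 1 of the 12 on either strand, from another start of Otx2, against 7.06% of all windows. CAAGTG, the NKX2-1-type site, was in 0 of the 12, against 13.6%. The Lhx2 window was 74.7% G and C, the Six6 window 62.3%, the Nkx2-1 window 53.7% and the Otx2 window 41.7%, beside a median of 52.7% over all windows. A match is only a run of letters, and no binding was measured.

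None of the 8 members tested passed the test between the genotypes, and the MD1 libraries overlapped the WT libraries for all 9. Of 15452 autosomal genes tested, 12 passed an adjusted p of 0.05 in edgeR, or 0.0777%. No member had an unadjusted p under 0.05 either, against 9.79% of all genes tested. Non-overlapping groups were seen for 2.05% of all genes tested and for 0 of 9 members. The fitted log2 fold change was above 0 for 3 members and below 0 for 5, with a median of -0.11, beside 0.00 for all genes tested. In a dissected tissue, fewer cells of a type and less RNA per cell cannot be told apart.

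**Figure D1:**
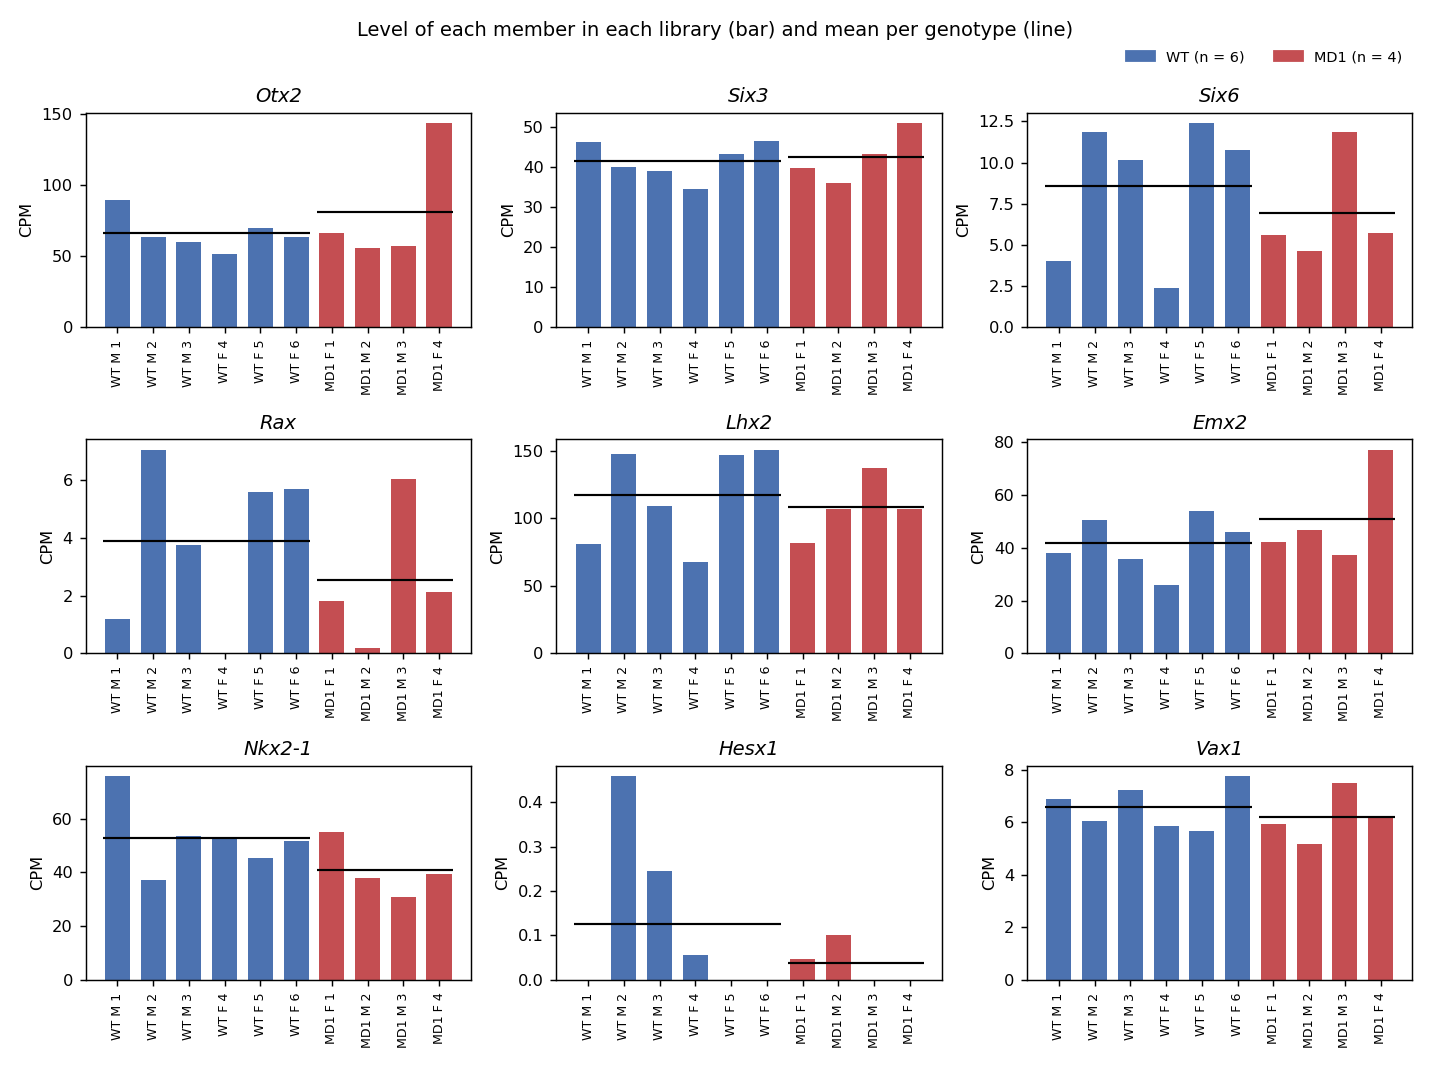
Level of each of the 9 members in counts per 1000000 (CPM, y axis, starting at 0) in each library (x axis, genotype, labelled sex M or F, replicate number). Bars are libraries, blue for WT (n = 6) and red for MD1 (n = 4), and horizontal lines are genotype means. Otx2 in MD1 female replicate 4 stands at 143 CPM, above every other library, while Six6, Rax and Lhx2 are low in the same 5 libraries of both genotypes.

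Of the factors of the anterior neural plate, Otx2 directs formation of the forebrain and midbrain. The gene (ENSMUSG00000021848) lies on chromosome 14 (minus strand) at 48657677 to 48673819 (7 merged exon blocks). Its WT libraries ran from 51.3 through a median of 63.3 to 89.5 CPM. In MD1 it stood at 66.2 CPM in the library labelled female replicate 1, 55.4 in male replicate 2, 57.3 in male replicate 3 and 143 in female replicate 4. Apart from female replicate 4, which was above every WT library, the MD1 values lay inside the WT range. The log2 fold change of 0.30 (SE 0.25, 95% interval -0.25 to 0.84) had an edgeR adjusted p of 0.658. Without female replicate 4 it was -0.13 (SE 0.14, adjusted p = 0.913), so 1 library set its direction. The hypoxia and erythroid genes that were high in this library moved with Otx2 there, and their part in the value was not tested.

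Six3, a repressor of Wnt signalling in the anterior neural plate, was the steadiest member. The gene (ENSMUSG00000038805) lies on chromosome 17 (plus strand) at 85613608 to 85629302 (4 merged exon blocks), 14138264 bases from Smchd1 itself. WT libraries ranged from 34.6 through a median of 41.6 to 46.6 CPM, and the MD1 libraries, in replicate order, from 39.7 and 36.0 to 43.3 and 50.9 CPM. Only MD1 female replicate 4, with the last of these values, was outside the WT range. The log2 fold change was 0.03 (SE 0.12, 95% interval -0.22 to 0.29, edgeR adjusted p = 0.930). It was -0.07 without MD1 female replicate 4. The antisense gene Six3os1 shares 106 exon bases with Six3 and stood at 127 ± 11.6 CPM in WT. The kit named in the labels does not keep strand, and 2.38% of the 75-base stretches of Six3 transcripts also lie in another gene, so a small part of its reads could belong to either.

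Hesx1, a repressor of the forebrain and of the pituitary primordium, was near the limit of detection. The gene (ENSMUSG00000040726) lies on chromosome 14 (plus strand) at 26994416 to 27002329 (5 merged exon blocks). It had 10 reads in WT male replicate 2, 6 in WT male replicate 3, and 1 read in WT female replicate 4, in MD1 male replicate 2 and MD1 replicate 1, labelled female. The other 5 libraries had 0 reads, which allows levels of up to 0.219 CPM in WT female replicate 6 and up to 0.725 CPM in MD1 male replicate 3, counting error only. No difference between the genotypes was detectable at this depth.

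Among the eye-field factors, Rax, without which eyes do not form, varied most. The gene (ENSMUSG00000024518) lies on chromosome 18 (minus strand) at 65928277 to 65939787 (4 merged exon blocks). WT female replicate 4 had 0 reads in a library of 18166166 counts, which allows up to 0.164 CPM, and WT male replicate 1 had 11 reads, or 1.18 CPM. The other WT libraries held 3.75, 5.58, 5.70 and 7.06 CPM. In MD1, the library labelled female replicate 1 stood at 1.81 CPM, male replicate 2 at 0.199, from 2 reads, male replicate 3 at 6.04 and female replicate 4 at 2.13. High and low libraries were thus found in both genotypes. The log2 fold change of -0.81 had a standard error of 0.90 and a 95% interval of -2.77 to 1.15 (edgeR adjusted p = 0.733), which allows a large change either way. Of its exon bases, 27.4% are shared with the antisense gene Raxos1, which had 0 to 64 reads per library. Without strand, reads of the shared bases could belong to either gene.

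Six6, a relative of Six3 needed for growth of the retina and pituitary, split the libraries in the same way. The gene (ENSMUSG00000021099) lies on chromosome 12 (plus strand) at 72939892 to 72944899 (2 merged exon blocks). WT female replicate 4 had 2.35 CPM and WT male replicate 1 had 3.98, whereas the other 4 WT libraries held 10.1 to 12.4 CPM. MD1 male replicate 3 reached 11.8 CPM, and the other MD1 libraries stood at 5.61, 4.59 and 5.70 in replicate order. All 4 MD1 values lay inside the WT range. Its log2 fold change was -0.37 (SE 0.44, 95% interval -1.34 to 0.59, edgeR adjusted p = 0.750). No 75-base stretch was common to Six3 and Six6 transcripts, so their counts do not borrow from each other.

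Lhx2, a LIM-homeodomain factor of the optic vesicle and the cortex, lies on chromosome 2 (plus strand) at 38339281 to 38369733 (ENSMUSG00000000247, 8 merged exon blocks). Its WT libraries ran from 67.6 through a median of 128 to 151 CPM, the lowest again being WT female replicate 4 and the next WT male replicate 1, at 80.9. The MD1 libraries had 81.9, 107, 137 and 107 CPM in replicate order, all inside the WT range. Its log2 fold change was -0.12 (SE 0.23, 95% interval -0.62 to 0.38, edgeR adjusted p = 0.849).

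Emx2, a factor of the dorsal telencephalon, was likewise lowest in WT female replicate 4. The gene (ENSMUSG00000043969) lies on chromosome 19 (plus strand) at 59458372 to 59465357 (4 merged exon blocks). It ran from 26.0 through a median of 41.9 to 53.9 CPM in WT. In MD1 it stood at 42.2, 46.8 and 37.2 CPM in replicates 1 to 3 and at 77.3 CPM in female replicate 4, the only MD1 library outside the WT range. The log2 fold change of 0.30 (SE 0.23, 95% interval -0.20 to 0.79, edgeR adjusted p = 0.632) was 0.03 without that library, in which Otx2 and Six3 were also at their highest. Emx2os, on the opposite strand, shares 264 exon bases with it and stood at 3.58 ± 0.89 CPM in WT.

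Of the ventral factors, Nkx2-1, which specifies the ventral telencephalon and hypothalamus, came nearest to the threshold. The gene (ENSMUSG00000001496) lies on chromosome 12 (minus strand) at 56531958 to 56536908 (3 merged exon blocks), 16402983 bases from Six6. WT libraries ranged from 37.1 through a median of 52.4 to 75.9 CPM. MD1 libraries stood at 55.0 CPM in the library labelled female replicate 1, 38.0 in male replicate 2, 30.9 in male replicate 3 and 39.5 in female replicate 4. Male replicate 3, the shallowest library, was below every WT library, and the others lay inside the WT range. MD1 against WT gave a log2 fold change of -0.35 (SE 0.19, 95% interval -0.77 to 0.07, edgeR adjusted p = 0.531). Without the library labelled MD1 female 1 it was -0.53 (SE 0.19, adjusted p = 0.368), the lowest adjusted p of any member in the 21 alternatives. Without WT male replicate 1, where it was highest, the value was -0.23 (SE 0.17, adjusted p = 0.614). Its unadjusted p was under 0.05 in 5 of the 21 alternatives, and no other member reached that in any of them. Among these 5 was the fit without the library labelled MD1 female 1, where 12.5% of all genes tested were also under 0.05. Another was the fit without both libraries labelled MD1 female, where 9.32% were. The share of all genes is not given for the remaining fits, so this count alone says nothing particular to Nkx2-1.

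Vax1, a factor of the optic stalk and ventral forebrain, lies on chromosome 19 (minus strand) at 59166187 to 59170056 (ENSMUSG00000006270, 4 merged exon blocks), 288315 bases from Emx2 with 6 genes of the table between them. Its WT libraries ran from 5.68 through a median of 6.47 to 7.75 CPM. MD1 libraries had 5.94, 5.19, 7.49 and 6.23 CPM in replicate order, of which only male replicate 2 was below the WT range. MD1 against WT gave a log2 fold change of -0.10 (SE 0.16, 95% interval -0.45 to 0.26, edgeR adjusted p = 0.828). Neither Vax1 nor its neighbour Emx2 passed the test.

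**Figure D2:**
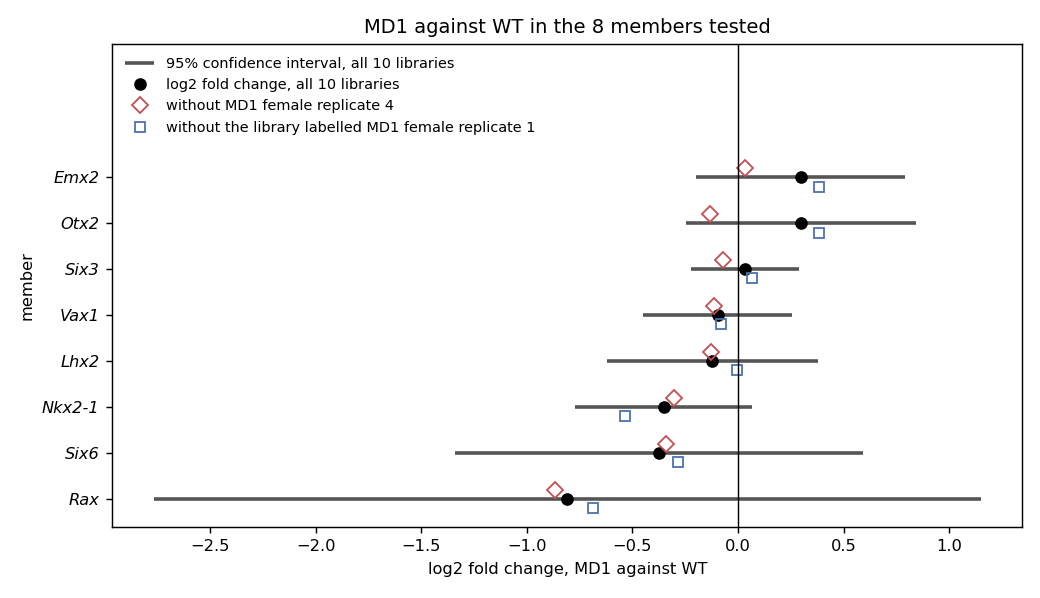
Log2 fold change of MD1 against WT (x axis) for the 8 members tested (y axis). Black points and bars are the edgeR value and its 95% confidence interval over all 10 libraries, red diamonds leave out MD1 female replicate 4 and blue squares leave out the library labelled MD1 female 1. Every interval includes 0, and Otx2 goes from 0.30 to -0.13 without MD1 female replicate 4.

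Most members varied widely between WT libraries. Over the 6 WT libraries, the coefficient of variation of CPM was 71.7% for Rax, 50.1% for Six6 and 31.5% for Lhx2. It was 25.0% for Emx2, 24.6% for Nkx2-1, 19.5% for Otx2, 12.7% for Vax1 and 11.1% for Six3. The median of the 8 members was 24.8%, beside 10.8% for all genes tested. Only 0.699% of genes tested had a larger coefficient than Rax, and 3.04% a larger one than Six6, whereas 48.3% had a larger one than Six3. Counting error at the mean WT depth alone would give a coefficient of 12.3% for Rax, 9.64% for Vax1, 8.33% for Six6 and at most 3.88% for the others. The biological coefficient of variation from edgeR, over both genotypes and with counting error removed, was 98.8% for Rax and 46.1% for Six6. It was 13.9% for Six3 and 16.3% for Vax1, both below the median of 17.0% for all genes tested. By this measure these 2 members were no more variable than most genes. By the coefficient of CPM in WT, at 11.1% and 12.7%, both lay above the median of 10.8%.

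The 3 eye-field factors divided the libraries alike. The 5 libraries lowest in Six6 were also the 5 lowest in Rax and in Lhx2. They were WT male replicate 1, WT female replicate 4 and every MD1 library except male replicate 3, so 2 of 5 were WT and 3 of 5 MD1. Between the low and the high libraries Six6 went from at most 5.70 to at least 10.1 CPM and Rax from at most 2.13 to at least 3.75, while Lhx2 had no such gap (107 and 109 CPM). Among the WT libraries alone, the 3 lowest were the same for Six6, Rax, Lhx2 and Emx2, namely male replicates 1 and 3 and female replicate 4. Because Six6 put the libraries into separate clusters of 5, too few for a correlation within each, no test of its relation to other members is given. Lhx2 ran without such a break, but Rax had a gap between the same libraries, so its relation to Lhx2 is not shown within each cluster. Rax and Lhx2 had r = 0.80 on log2 CPM over the 10 libraries (permutation p = 0.00435, adjusted 0.0304 over the 28 pairs of members). Their rho was 0.90 (permutation p = 0.00088, adjusted 0.0123). Their r was 0.95 without the 2 libraries farthest from the median of Rax, 0.92 within the 6 WT libraries, 0.85 without the library labelled MD1 female 1 and 0.80 without MD1 female replicate 4.

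**Figure D3:**
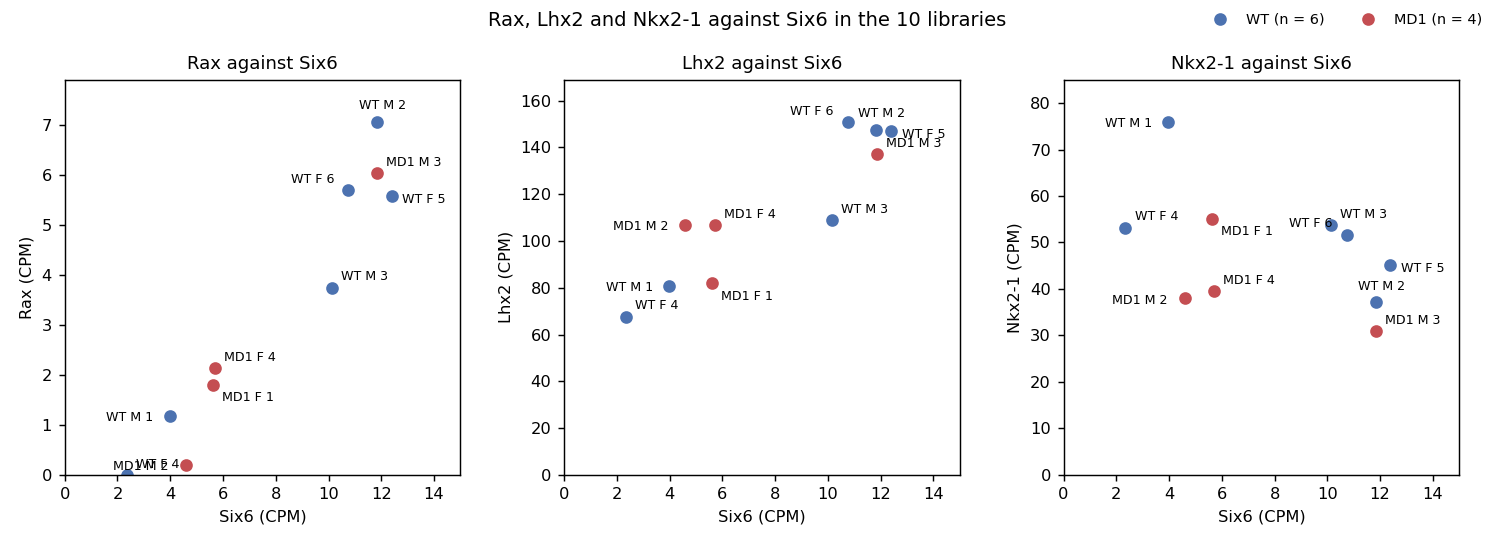
Rax, Lhx2 and Nkx2-1 (y axes, CPM) against Six6 (x axis, CPM) in the 10 libraries, blue for WT (n = 6) and red for MD1 (n = 4), each named by genotype, labelled sex and replicate. Rax and Lhx2 are higher in the libraries with Six6 at 10.1 CPM or more, and both genotypes occur on either side, while Nkx2-1 does not follow.

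Nkx2-1 did not share this division. It was highest in WT male replicate 1 (75.9 CPM), where Six6, Rax and Lhx2 were low, and lowest in MD1 male replicate 3 (30.9 CPM), where all 3 were high. On log2 CPM over the 10 libraries its Pearson r ran from -0.58 with Lhx2 (permutation p = 0.0783, adjusted 0.280, rho = -0.53, permutation p = 0.123, adjusted 0.373) to 0.15 with Vax1. Its r with Lhx2 was -0.74 without the 2 libraries farthest from the median of Lhx2 and -0.66 within the 6 WT libraries, so its levels tended the opposite way but did not pass the threshold. Otx2 and Six3 were most like each other, with r = 0.80 (permutation p = 0.00175, adjusted permutation p = 0.0163 over the 28 pairs of members). Their Spearman rho was 0.71 (permutation p = 0.0262, adjusted 0.184), so the relation passed the threshold by r only. Without the 2 libraries farthest from the median of Otx2, r was 0.66, within the 6 WT libraries it was 0.78, and without MD1 female replicate 4 it was 0.71. Emx2 was most like Otx2 (r = 0.72, permutation p = 0.0261, adjusted 0.146, rho = 0.61, permutation p = 0.0672, adjusted 0.373), with r = 0.34 without MD1 female replicate 4. Library and scaling are shared by all of these values.

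**Figure D4:**
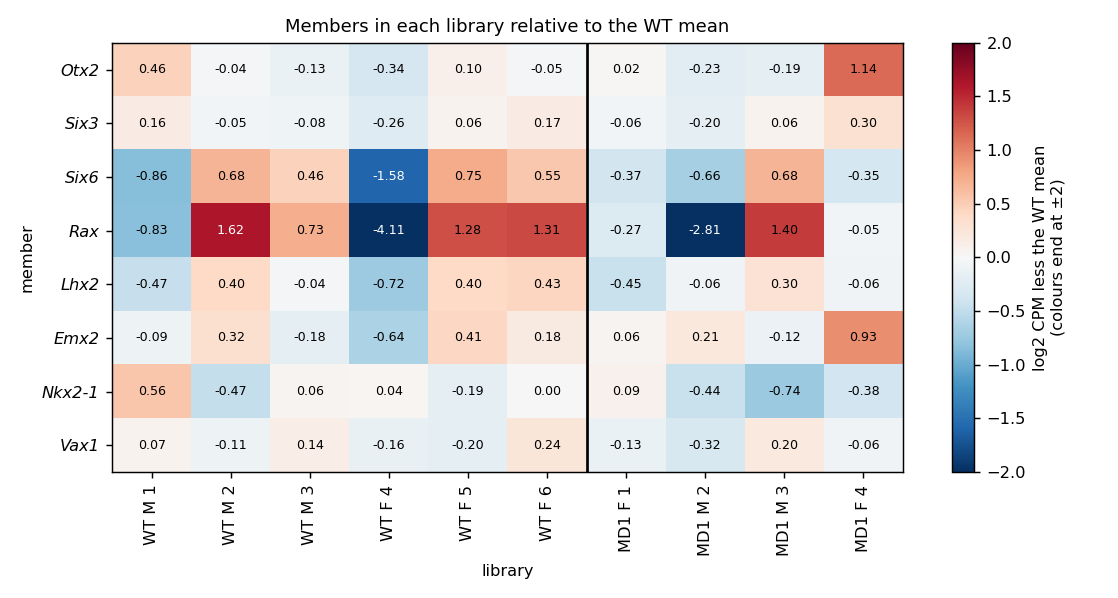
Log2 CPM of each member (y axis, 8 members tested) in each library (x axis) less the mean of the 6 WT libraries, with the value printed in each cell and colours ending at ±2. The black line divides WT from MD1. WT female replicate 4 is below the WT mean for all members except Nkx2-1, and Rax covers the widest range, from -4.11 to 1.62.

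Averaged over the 8 members, the log2 level relative to the WT mean ran from -0.97 in WT female replicate 4 to 0.36 in WT female replicate 6. MD1 libraries ran from -0.56 in male replicate 2 to 0.20 in male replicate 3. The MD1 mean was 0.08 below the WT mean (value -0.08), beside a standard deviation within genotypes of 0.46. With Rax left out, WT female replicate 4 stood at -0.52 and MD1 male replicate 2 at -0.24, so these libraries remained the lowest of their genotypes. No test was made of this mean, since the members were chosen with results of these data known.

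Other genes of the forebrain and eye, taken from lists by tissue, varied by library too. Of the telencephalon list, 0 of 11 genes tested passed the threshold between the genotypes, 9 were above 0 and 2 below, with a median log2 fold change of 0.27. Without MD1 female replicate 4, 4 of 12 were above 0 and 8 below, with a median of -0.08. Wnt8b, a signal of the cortical hem, had 1.42 CPM in WT female replicate 4 against 48.0 in WT female replicate 5, and 73.8 in MD1 female replicate 4. Nr2f1 and Sp8 had log2 fold changes of -0.18 (SE 0.12, adjusted p = 0.603) and 0.26 (SE 0.16, adjusted p = 0.570) in edgeR. As a list score relative to the WT mean, the telencephalon stood at -0.88 in WT female replicate 4 and 1.03 in MD1 female replicate 4.

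The optic vesicle and cup list gave 0 of 5 genes past the threshold, with 2 above 0, 3 below and a median of -0.01. Pax6, the eye selector gene, ranged from 29.8 CPM in WT female replicate 4 and 43.3 in WT male replicate 1 to 77.4 in WT female replicate 5, with MD1 at 46.7 to 76.4. Foxd1, a factor of the temporal retina and of other tissues, ranged from 35.1 to 49.2 CPM in WT and from 31.9 to 57.5 in MD1, and did not follow that order. The list score was lowest in WT female replicate 4 (-1.25) and WT male replicate 1 (-0.78), the same libraries in which Six6 and Rax were lowest in WT.

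Pigment genes, which mark the retinal pigment layer and melanocytes, were lowest in 4 of the 5 libraries low in Six6. Their list score was -1.57 in WT male replicate 1, -1.68 in WT female replicate 4, -1.84 in the library labelled MD1 female 1 and -1.60 in MD1 female replicate 4. Between the genotypes 0 of 3 pigment genes tested passed the threshold, with a median log2 fold change of -0.77, all 3 below 0. The median was -0.30, with 3 of 4 below 0, when MD1 was represented by its male libraries alone. The same 4 libraries had the highest list scores for yolk sac endoderm. Of its genes, Afp stood at 13.7, 21.2, 239 and 68.4 CPM against at most 0.855 CPM in the other 6. Apob was also higher in these 4 than in the other 6, but Trf, Apoa1 and Ttr did not set WT male replicate 1 apart. Trf had 5.16 CPM there against 8.06 in WT male replicate 3. Apoa1 had 0.538 CPM there against 0.658 in WT female replicate 6. The part of these tissues in the members' values was not tested.

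As a list, markers of the general neuroepithelium varied little beside the members. Their list score ran from -0.28 in WT female replicate 4 to 0.17 in WT female replicate 6 and from -0.07 to 0.02 in MD1. Single genes of the list could vary more, such as Rfx4 and Sox3, named after their values were seen. In WT, Rfx4 ran from 3.00 CPM in female replicate 4 to 14.1 in female replicate 5. Sox3 ran from 17.0 CPM in WT male replicate 1 to 42.7 in WT female replicate 5. Nes, an intermediate filament of neural progenitors, was 531 to 585 CPM in WT and 314 to 582 in MD1, and Sox2 was 81.6 to 119 in WT and 97.7 to 162 in MD1. Of 10 such genes tested, 0 passed the threshold, with a median log2 fold change of -0.07. Facial mesenchyme genes, which define the labelled tissue, summed to 1560 to 2222 CPM in WT and 1112 to 1848 in MD1, with 0 of 12 past the threshold, 1 above 0 and 11 below, and a median of -0.13. Without MD1 female replicate 4, 6 were above 0 and 6 below, with a median of 0.0033. Their score was highest in WT female replicate 4 (0.38), where the members were lowest, and lowest in MD1 female replicate 4 (-0.57), where Otx2 and Emx2 were highest.

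Several markers of more distant parts of the head were at or near 0. The 7 midbrain and hindbrain genes summed to 3.00 to 5.05 CPM in WT and 1.21 to 6.995 in MD1. Of these, Hoxb1 had 0 reads in every library, and En2 stayed at or below 0.152 CPM. The list had 1 gene tested, Pax5, with a log2 fold change of 0.05, and of -0.32 without MD1 female replicate 4. Of the hypothalamus and pituitary genes, Nkx2-4 had at most 0.229 CPM, while Shh stood at 30.7 to 49.99 CPM in WT and 16.7 to 41.2 in MD1 (log2 fold change -0.38, SE 0.22, edgeR adjusted p = 0.545). That list gave 0 of 4 past the threshold, with a median of -0.14. The lens list gave 0 of 3, with a median of -0.08. Its highest genes, which other tissues also express, were Maf at 15.2 ± 1.65, Prox1 at 9.11 ± 0.82 and Cryab at 2.19 ± 1.31 CPM in WT (SD, n = 6), while Cryaa, a crystallin of the lens, reached at most 1.68 CPM.

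**Figure D5:**
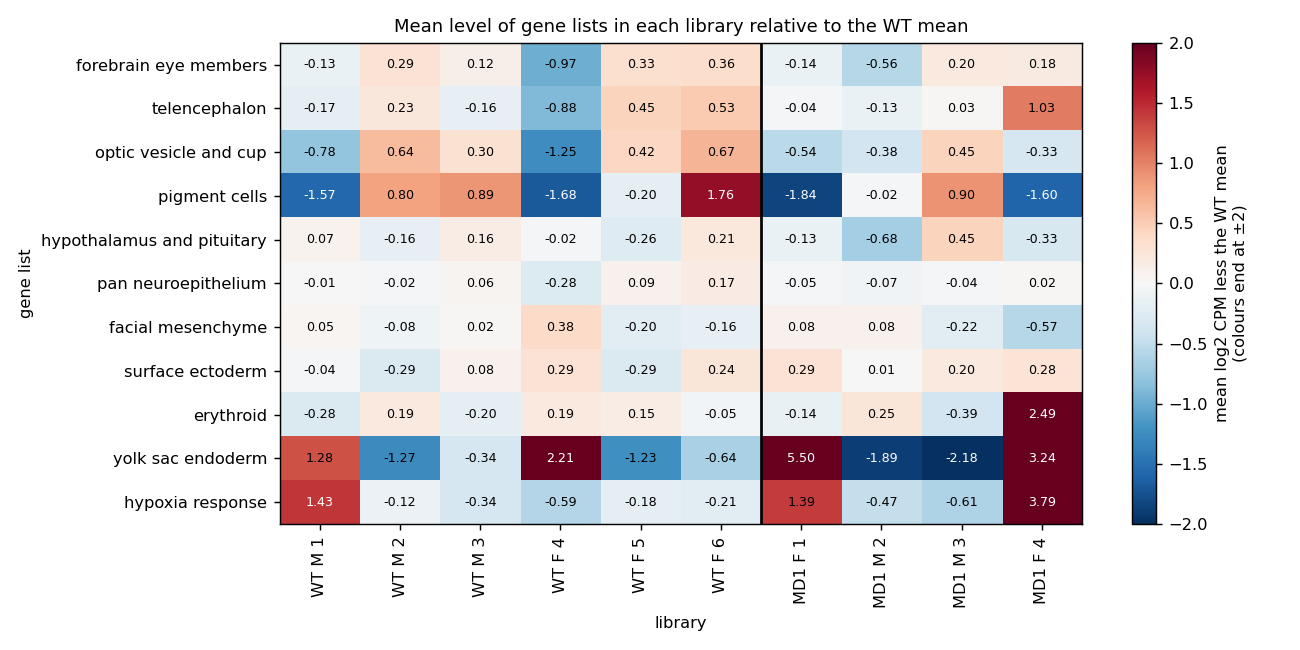
Mean log2 CPM of the tested genes of each list (y axis) in each library (x axis) less the WT mean, with the value printed in each cell and colours ending at ±2. The black line divides WT from MD1. The optic and pigment lists are low in WT male replicate 1 and WT female replicate 4, and MD1 female replicate 4 has the telencephalon, erythroid and hypoxia lists at 1.03, 2.49 and 3.79.

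Signals and partners of these factors were also read from the same fit. Of 9 genes tested for signals of the anterior neural ridge, 0 passed the threshold, with 5 above 0, 4 below and a median of 0.12. Fgf8, the main signal of that ridge, which was named after its values were seen, ranged from 13.5 to 26.1 CPM in WT and from 15.4 to 35.8 in MD1. Of 10 cofactors that bind SIX-family or LIM-homeodomain proteins, 0 passed the threshold, with 2 above 0, 8 below and a median of -0.11. The 4 highest were Ssbp3, at -0.14 (SE 0.07, edgeR adjusted p = 0.518), Ldb1, the partner of LIM-homeodomain factors such as Lhx2, at -0.02 (SE 0.08, adjusted p = 0.954), Tle3 at -0.23 (SE 0.09, adjusted p = 0.496) and Tle1, a corepressor of Six3, at -0.03 (SE 0.08, adjusted p = 0.886). Tle3 alone of the 10 had an unadjusted p under 0.05.

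Neurons gave 0 of 6 past the threshold (median -0.01), the olfactory placode 0 of 9 (0.06, 7 above 0) and surface ectoderm 0 of 10 (0.30, 9 above 0). Erythroid cells gave 0 of 4 (1.08, all 4 above 0), yolk sac endoderm 0 of 3 (3.72, all 3 above 0) and the hypoxia response 0 of 12 (1.89, all 12 above 0). At an unadjusted p under 0.05 there were 12 of 12 hypoxia, 3 of 3 yolk sac, 2 of 4 erythroid and 2 of 10 surface ectoderm genes, against 9.79% of all genes tested. The hypoxia, erythroid and yolk sac medians rested on the libraries labelled MD1 female. Without female replicate 4 the hypoxia median was 0.45, with 0 of 12 at an unadjusted p under 0.05, the erythroid median -0.08, the surface ectoderm median 0.13 and the neuron median 0.09. Without the library labelled MD1 female 1 the yolk sac median was 1.196 and the neuron median -0.12. With both left out, the hypoxia median was -0.26 and the yolk sac median -2.55, and the hypoxia scores of the other MD1 libraries, -0.47 and -0.61, were below the WT mean.

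Sex by label was examined in 1 model with 4 groups on 15982 genes. With all 10 libraries, among them the one labelled female that carried Y-linked reads, this model did not call known sex differences. Xist, Ddx3y, Eif2s3y, Kdm5d and Uty all missed the threshold between WT females and WT males (0 of 5, lowest edgeR adjusted p = 0.0525), and 0% of all genes passed, so the absence of calls there says nothing of the members. Without the library labelled MD1 female 1 all 5 passed, as did 0.136% of all genes and 0 of 8 members. All 5 also passed with all libraries and no filter on low counts, where again no member did. The share of all genes that passed in that fit is not given, so its lack of member calls has no background beside it. In the fit without the library labelled MD1 female 1, Otx2 stood at -0.20 (SE 0.15, 95% interval -0.53 to 0.13) in WT females against WT males, on the log2 scale. Rax stood at -0.20 there (SE 0.98, 95% interval -2.33 to 1.92). With all libraries, 0 of 8 members had an unadjusted p under 0.05, against 1.31% of all genes.

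Between MD1 and WT within males, 0 of 8 members passed the threshold, against 0.0188% of all genes. Nkx2-1 was the only one of 8 at an unadjusted p under 0.05 there (3.8% of all genes), with a log2 fold change of -0.67 (SE 0.27, 95% interval -1.26 to -0.08, edgeR adjusted p = 0.999). Without the library labelled MD1 female 1 it was -0.65 (SE 0.24, adjusted p = 0.692).

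Within females by label, 0 members passed the threshold with all libraries, against 0.00626% of all genes. Otx2 was the only member at an unadjusted p under 0.05 (19.1% of all genes), with a log2 fold change of 0.77 (SE 0.28, 95% interval 0.15 to 1.39, adjusted p = 0.201). The difference between the effects of genotype in females and in males passed the threshold for 0 members and 0% of all genes. At an unadjusted p under 0.05 it was again Otx2 alone, against 10.4% of all genes, at 1.10 (SE 0.41, adjusted p = 0.459).

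Without the library labelled MD1 female 1, the female arm is MD1 female replicate 4 alone, assumed to vary like the other groups. Within females 2 of 8 members then passed, Otx2 at 1.23 (SE 0.20, edgeR adjusted p = 0.000754) and Emx2 at 0.89 (SE 0.30, adjusted p = 0.0396), against 33.8% of all genes. For the difference between the sexes 1 member passed, Otx2, at 1.54 (SE 0.27, adjusted p = 0.00229), against 22.6% of all genes, while Emx2 stood at 0.86 (SE 0.40, adjusted p = 0.150). Both sets of values compare 1 library with the others.

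Genes most like the members across libraries depended on MD1 female replicate 4. With r of log2 CPM to the mean of the 8 standardised members over 10 libraries as the measure, the 10 nearest of the autosomal genes tested were Slc45a3 (0.94), Mgll, Rhpn1, Lmx1b, Gm20427, Ppan, A430057M04Rik, Comtd1, Dpysl5 and Dlk1 (0.89). Without that library they were Nuak2 (0.95), Brsk2, Ezr, Pde10a, Dipk1c, Slc45a3, Cyp46a1, Slc38a8, Man2b2 and Slc1a5 (0.91). Only 1 gene, Slc45a3, was in both lists of 10. For single members, looked at after their values were seen, the nearest gene was Raxos1 for Rax (0.98), Filip1 for Six6 (0.98) and Lekr1 for Nkx2-1 (0.93). Dct, a pigment enzyme, and Aldh1a1, a retinoic acid enzyme of the dorsal retina, were among the 10 nearest to Six6, at 0.95 and 0.94. Sfta3-ps was among the 10 nearest to Nkx2-1, at 0.88. These values describe 10 libraries that share 1 scaling, and the genes were picked for their r, so they carry no test.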

How the data were processed

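RNA sequencing had been carried out on FNP tissue, and the groups and replicate numbers were taken from the labels. The authors deposited whole-number read counts per gene and a table of log2 RPKM values that they had scaled to library size and transcript length. Per the study's methods and the submitters' processing notes, HISAT2 2.0.5 had aligned the reads to GRCm38.p6 after trimming (Trim Galore 0.4.4), and SeqMonk had counted them per gene. Deposited columns of mean signal per genotype, averaged by the authors over the count columns, were not used. The library kit that the labels give for all 10 samples does not mark strand, and how the counting treated strand is not given in the sources used.

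The count table has 35591 rows. Symbols that had become dates were restored in 27 rows from the gene identifier, and of 49 rows with a repeated identifier the one with more reads was kept. All 9 members matched GENCODE release M21 by identifier, with the same start and end. Counts were tested in edgeR 4.0.16 (quasi-likelihood, R 4.3.3) after filterByExpr (15982 genes) and TMM scaling, p-values adjusted by Benjamini-Hochberg, called at 0.05, on the 15452 autosomal genes. An edgeR-based test at this threshold with sex chromosomes left out is what the study's methods name, while the filter, scaling, quasi-likelihood form and lack of covariates were chosen here. Levels are counts per 1000000 of the TMM-scaled library. Log2 levels and list scores used a prior count of 2. Correlations across libraries were tested with 100000 permutations, 2-sided. The test was checked on simulated data. DESeq2 1.42.0 and limma 3.58.1 served as alternatives, limma on the deposited log2 values.

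The members and the 17 gene lists (forebrain and eye members, telencephalon, optic vesicle and cup, lens, hypothalamus and pituitary, general neuroepithelium, neurons, midbrain and hindbrain, olfactory placode, facial mesenchyme, surface ectoderm, pigment cells, erythroid cells, yolk sac endoderm, hypoxia response, anterior neural ridge signals, and cofactors of SIX-family and LIM-homeodomain proteins) were chosen with earlier results of these data known, so none is independent support. The genes named are the members, up to 4 genes of a list with the highest WT level, genes that overlap a member, the 10 genes most like the members, and Smchd1, Xist and 4 Y-linked genes. Others are said to have been named after their values were seen. Some genes of these lists are not reported here by name. The depth of 4195119 to 24125084 counts sets the counting error, and limits for 0 reads are 3 reads per library. All 45 pairs of libraries differed by more than sampling noise (lowest chi-square of 3.92 per degree of freedom).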

Additional observations from a re-analysis of the deposited data

Results flagged for a closer look

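Within each genotype, 28 sets of libraries (the 9 members, their mean and 4 list scores, in WT and in MD1) were searched for 1 library far from the others by Dixon's ratio of gap to range, and 4 were flagged. Chance flags about 1 in 20 such sets. Otx2 in MD1 female replicate 4, at 143 CPM, was far above the next MD1 library, at 66.2 CPM. The telencephalon score of the same library, 1.03, was far above the next, 0.03. Six6 in MD1 male replicate 3, at 11.8 CPM, was far above the next MD1 library, at 5.70 CPM, although it lay inside the WT range. The mean level of the members in WT female replicate 4, at -0.97, was far below the next WT library, at -0.13, and it rests in part on Rax, which had 0 reads there.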

How the results depend on the processing

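No member passed the threshold between the genotypes under any of the 21 alternatives (DESeq2, the edgeR exact test, limma on the log2 RPKM, other scaling, no filter, labelled sex as a covariate, the replicate block, all chromosomes and libraries left out). The lowest adjusted p was 0.368. Of 168 fold changes, 156 kept the sign of the main value and 12 did not. Emx2, Nkx2-1 and Vax1 kept theirs throughout. Six3 was -0.051 in limma on the log2 RPKM and -0.011 with scaling by total count. Leaving out 1 library at a time, Otx2 ran from -0.13 (without MD1 female replicate 4) to 0.44, Six3 from -0.070 to 0.10, Rax from -1.43 to -0.41, Six6 from -0.69 to -0.23, Lhx2 from -0.25 to -0.0060 and Nkx2-1 from -0.53 to -0.23. Without both libraries labelled MD1 female, Otx2 was -0.22, Six3 -0.077 and Lhx2 0.052. The cause of these reversals was not tested.

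Replicate numbers 1 to 4 occur in both genotypes. Same-numbered libraries did not deviate together (correlations of 0.00, -0.07, 0.05 and -0.12), and 0 of 4 WT libraries was most like the MD1 library of its number. With the replicate block, on 8 libraries, 0 members and 0 autosomal genes passed, against 3 genes for those libraries with no block. Six6 was 0.16, Rax 0.36 and Lhx2 0.14 with the block, and Lhx2 was 0.090 without it. The difference of the genotype effect between the sexes passed for 0 members with all libraries and for 1, Otx2, without the library labelled MD1 female replicate 1, a fit added after the data were seen, as were the gene lists and correlations with libraries left out. Over all autosomal genes, 12 passed in the main fit, 51 in DESeq2, 30 in the exact test, 4 in limma, and 4 to 13 with 1 library left out. The mean level of the members in MD1 less that in WT was -0.27 to 0.08 with 1 library left out. Hesx1 is limited by depth, with 0 reads in 5 of the 10 libraries. Rax had 0 reads in 1 of the 10, WT female replicate 4, which held 18166166 counts. It had 25 reads in MD1 male replicate 3, the shallowest library. The coefficient of variation of Rax in WT was 71.7%, beside 12.3% from counting error alone.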

Other observations

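Antisense and overlapping transcripts of the members were also measured. Raxos1 stood at 1.73 ± 1.25 CPM in WT (SD, n = 6), Otx2os1 at 0.499 ± 0.218 CPM and 4930447C04Rik, which shares 192 exon bases with Six6 on the opposite strand, at 4.11 ± 1.43 CPM. Retinoid and pigment genes near to Six6 by likeness included Aldh1a1, which had 3 reads in its lowest library and 348 in its highest, and Dct, which had 11 to 180 reads. Both were looked at after their values were seen, and neither passed the test between the genotypes (edgeR adjusted p of 0.621 and 0.638).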
